A study of Mus musculus with 20 samples.

Results

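The Notch pathway and the transcription factors of supporting cells were described by 10 genes taken by name from the 24411 genes that the deposited tables of cochlear RNA-seq hold. They comprised the receptor gene *Notch1*, the ligand genes *Jag1* and *Dll1*, the fringe gene *Lfng*, the target genes *Hes1*, *Hes5* and *Hey2*, and the supporting cell transcription factor genes *Sox2*, *Sall1* and *Prox1*. Each of the 10 had a value above 0 in every library. *Sall1* had been named by the study among the genes raised at P22, so its P22 value is not independent evidence of that direction.

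The samples were pools of tissue from 4 mice each, from the sensory epithelium and the spiral ganglion neurons of the apical coil, on a C57BL/6N background (which carries the *Cdh23* allele of age-related hearing loss) with both sexes in use. Heterozygous Bai1tm2b/+ mice served as the controls and were compared with homozygous Bai1tm2b/tm2b littermates at postnatal day 7 (P7) and postnatal day 22 (P22). The tm2b allele lacks exons 3 and 4 of *Adgrb1*, the gene of the adhesion receptor BAI1, carries a lacZ reporter, is present in every cell of the animal, and removes the long form of the protein but not the short form. The controls therefore carried 1 copy of the same deletion, and no wild type was included. There were 3 pools of each genotype at P22, 3 of each at P7 as replicates 5 to 7, and 4 of each at P7 as replicates 1 to 4. The sources do not say that no mouse contributed to more than 1 pool, so p values measure the spread between these pools.

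The P22 libraries held 35726000 to 40350400 estimated counts, and P7 replicates 5 to 7 held 31108600 to 58807200. P7 replicates 1 to 4 hold TPM (a transcript's share of its library after scaling by length) rounded to whole numbers, so their depth is unknown. Levels in the 12 libraries in counts are given as CPM (a gene's counts scaled to a common library total) after TMM scaling over all 12, and levels in the other 8 as the deposited TPM. *Adgrb1* itself, counted over all isoforms, was at 152 to 167 CPM in Bai1tm2b/+ and 100.2 to 105 CPM in Bai1tm2b/tm2b at P22, a log2 fold change of -0.61 with a standard error (SE) of 0.0585 (adjusted p = 0.000602, edgeR). In the P7 libraries in counts it was at 32.1 to 56.4 and 21.6 to 31.2 CPM, and in those in rounded TPM at 7 to 12 and 9 to 12 TPM, where the genotypes overlapped and the gene level does not check the labels. All 15 supporting cell markers of the list used here were above 0 in every library.

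Notch signalling passes between touching cells. A ligand on one cell (Delta-like or Jagged) binds a Notch receptor on its neighbour, the receptor is cut by ADAM proteases and then by gamma-secretase, and the freed intracellular part enters the nucleus, where with RBPJ and a Mastermind protein it switches on genes of the HES and HEY families of repressors. In the organ of Corti this exchange sorts sensory progenitors into hair cells and supporting cells, with Delta-like ligands on nascent hair cells, and JAG1 and SOX2 mark the prosensory domain early and the supporting cells later. Fringe enzymes such as LFNG add sugars to the receptor and change how it responds to each ligand class.

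The promoters of the 10 genes were read for the binding motif of RBPJ, the DNA-binding partner of the Notch intracellular domain, because *Hes5* and *Hey2* are known targets and the values below concern their levels. RefSeq promoters (GRCm38.p6, 250 bases before to 50 bases after each start) were found for 9 of the 10 genes, all but *Hes1*, as 13 promoters. The letters GTGGGAA, on either strand, occurred in 3 of these 13, those of *Lfng*, *Hes5* and *Hey2*, and in 6.38% of all 32851 promoters of the same length. *Hes5* and *Hey2* each held 2 matches, as 0.256% of all promoters held 2 or more. The matches are shown 5′ to 3′ along the gene's strand, with the motif (or its reverse complement) in capitals and 10 bases on either side.
*Lfng* (chr5:140607222-140607248, plus strand): cgtatcccacGTGGGAAggagagatct
*Hes5* (chr4:154960687-154960713, plus strand): ggcgagcgcgTTCCCACagcccggaca
*Hes5* (chr4:154960830-154960856, plus strand): gccgccgagtGTGGGAAcggccgcggc
*Hey2* (chr10:30842974-30843000, minus strand): cgcggtggcaTTCCCACgcctctgcca
*Hey2* (chr10:30842771-30842797, minus strand): gggctgcagcGTGGGAAagaacctcca
These letters are a match and not a measured binding site, and no binding was measured in these samples. The motif starts 109 bases before the annotated start in *Lfng*, 226 and 83 bases before it in *Hes5*, and 207 and 4 bases before it in *Hey2*.

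Levels of different genes can be compared per transcript length in the 8 P7 libraries in TPM. *Sox2*, whose product holds cells in the prosensory and supporting cell state, had the highest mean at 90.2 ± 15.7 TPM (SD, n = 8), followed by *Lfng* at 62.6 ± 6.46 TPM. *Jag1* and *Hes1* came next at 34.4 ± 8.68 and 32.8 ± 4.13 TPM, and *Hey2*, *Notch1* and *Sall1* at 25.8 ± 1.58, 23.1 ± 5.19 and 18.2 ± 2.38 TPM. *Prox1* (9.88 ± 3.72 TPM), *Hes5* (5.62 ± 1.41 TPM) and *Dll1* (1.62 ± 0.518 TPM) were the lowest. *Jag1* thus stood well above *Dll1*, the other ligand, which was listed at 1 or 2 TPM in every library. Of the neighbours in this order, *Lfng* and *Jag1* did not overlap across libraries, nor did *Hes5* and *Dll1*, and the other 7 pairs of neighbours did. Within a library the order was firmer, since *Sox2* was above *Lfng*, and *Notch1* above *Sall1*, in 8 of 8 libraries, whereas *Jag1* was above *Hes1* in 4 of 8.

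**Figure D1:**
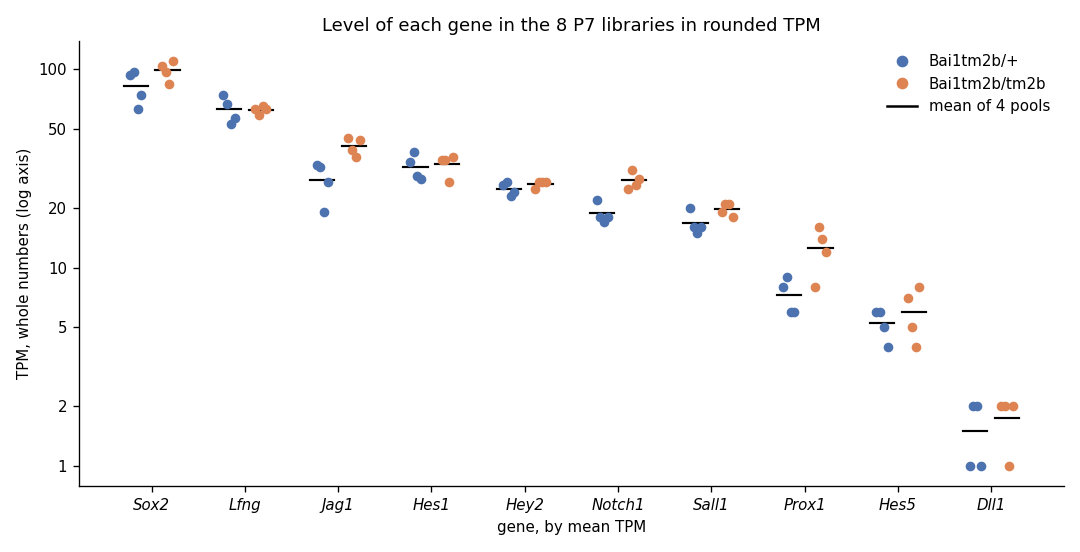
TPM (whole numbers, log axis) of each of the 10 genes in the 8 P7 libraries of replicates 1 to 4, with 1 point per pool, colours for genotype and a line at each mean of 4 pools. *Sox2* and *Lfng* lie highest and *Dll1* lies at 1 or 2 TPM, and the genotypes are apart for *Notch1* and *Jag1*.

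Between P7 and P22 most of these genes had fallen. In the 12 libraries in counts, 8 of the 10 were lower at P22, *Prox1* was higher, and *Hey2* was not called (edgeR, both genotypes given equal weight). A gene was called when its p, adjusted over all genes tested, was below 0.05, its log2 fold change was beyond 0.5 up or down, and its SE was below 0.5. Of all 16314 genes tested, 25.9% were called higher and 28.7% lower, with a median log2 fold change of -0.05, against -1.49 for the 10 genes. The ages did not overlap for 9 of the 10, as for 62.6% of all genes. Age, sequencing batch and deposited table coincide here and cannot be told apart.

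**Figure D2:**
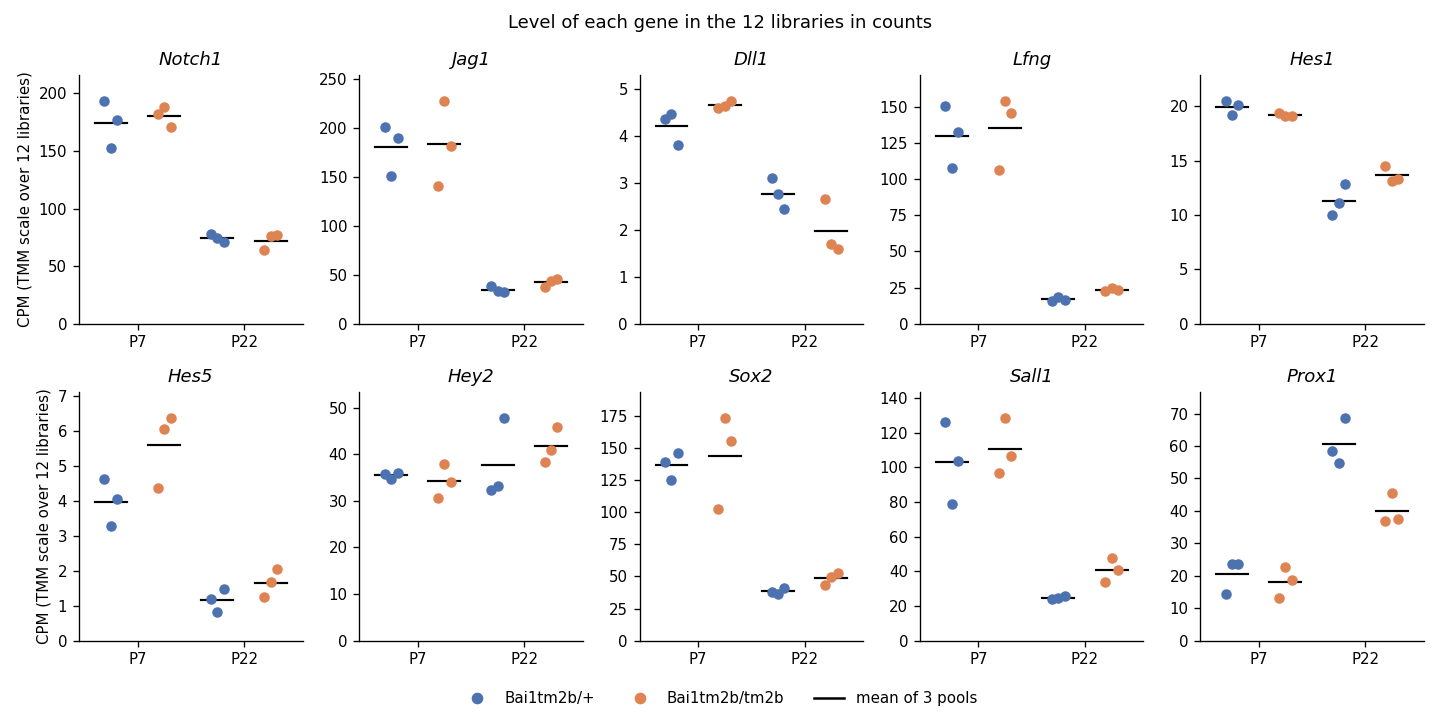
CPM (TMM scale over 12 libraries, each vertical axis from 0) of each of the 10 genes at P7 (replicates 5 to 7) and P22, with 1 point per pool, colours for genotype and a line at each mean of 3 pools. At P22 all libraries lie below all P7 libraries for 8 genes and above them for *Prox1*, while *Hey2* overlaps.

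*Lfng* (chr5:140607320-140615545, plus strand, GRCm38) fell the most of the 10. It ranged from 106 to 154 CPM (median 139, n = 6) at P7 and from 15.7 to 24.9 CPM (median 20.6, n = 6) at P22, a log2 fold change of -2.74 (SE 0.108, adjusted p = 2.07e-10, edgeR) or 6.57-fold lower. Among the ligands, *Jag1* (chr2:137081456-137116644, minus strand) fell 4.71-fold and ranged from 141 to 227 CPM (median 186, n = 6) at P7 and from 32.5 to 46.1 CPM (median 38.2, n = 6) at P22 (log2 fold change -2.24, SE 0.116, adjusted p = 1.84e-09, edgeR). Both genes had every P22 library below every P7 library by a wide gap. *Dll1* fell 1.87-fold from a low level, 3.81 to 4.73 CPM at P7 and 1.59 to 3.10 CPM at P22 (log2 fold change -0.92, adjusted p = 4.63e-05, edgeR), from no more than 280 counts a library. *Notch1* (chr2:26457903-26516663, minus strand) was at 152 to 193 CPM at P7 and 63.7 to 78.1 CPM at P22, 2.42-fold lower (log2 fold change -1.27, SE 0.0683, adjusted p = 2.54e-09, edgeR).

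The 3 target genes did not move alike. *Hes5* fell 3.40-fold (log2 fold change -1.76, SE 0.183, adjusted p = 1.37e-06, edgeR), 3.27 to 6.37 CPM at P7 and 0.817 to 2.07 CPM at P22, where a library held as few as 26 counts of it. *Hes1* fell less, at 19.1 to 20.5 CPM at P7 and 10.03 to 14.5 CPM at P22 (log2 fold change -0.65, adjusted p = 9.53e-07, edgeR). *Hey2*, which is known as a gene of pillar cells, lay at 30.5 to 37.8 CPM at P7 and 32.3 to 47.7 CPM at P22, a log2 fold change of 0.19 (SE 0.0962, adjusted p = 0.0856, edgeR). Of the promoters shown above, those of *Hes5* and *Hey2* each hold 2 matches to the motif. On the TMM scale the changes of these genes with age had opposite signs, although that of *Hey2* was not called. With libraries scaled to neuron markers both were called lower, as were 14713 of all 16314 genes tested. Whether the motif has a part in these changes was not tested.

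Of the transcription factor genes, *Sox2* and *Sall1* fell 3.23-fold and 3.27-fold. *Sox2* ranged from 102 to 174 CPM (median 143, n = 6) at P7 and from 36.6 to 52.5 CPM (median 42.1, n = 6) at P22 (log2 fold change -1.70, SE 0.111, adjusted p = 1.50e-08, edgeR). *Sall1*, a zinc finger repressor gene, was at 78.6 to 128 CPM at P7 and 24.0 to 47.5 CPM at P22 (log2 fold change -1.75, SE 0.119, adjusted p = 2.13e-08, edgeR). *Prox1*, a homeobox gene of pillar and Deiters' cells that other cells of the cochlea also express, was the exception at 13.1 to 23.7 CPM at P7 and 36.9 to 68.6 CPM at P22, 2.60-fold higher (log2 fold change 1.35, SE 0.149, adjusted p = 2.38e-06, edgeR). The calls of these 9 genes were the same in Bai1tm2b/+ libraries alone and in Bai1tm2b/tm2b libraries alone, and when each of the 12 libraries was left out.

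Summed levels of cell type markers also differed between the ages. The summed level of the 9 neuron markers was 964 to 2574 CPM at P7 and 10746 to 16654 CPM at P22, and all 9 were called higher. The 15 supporting cell markers summed to 2955 to 3635 CPM at P7 and 2589.6 to 3406 CPM at P22. In bulk tissue, fewer cells of a type and less RNA per cell cannot be told apart. With libraries scaled to the supporting cell markers, which raised the median of all genes to 0.47, *Notch1*, *Jag1*, *Lfng*, *Hes5*, *Sox2* and *Sall1* were still called lower and *Prox1* higher, *Hey2* was called higher (0.71 on the log2 scale), and *Dll1* (-0.40) and *Hes1* (-0.13) were not called. With libraries scaled to the neuron markers, which moved the median of all genes to -2.88, all 10 were called lower. *Prox1* was at -1.41 and *Hey2* at -2.64. Of all 16314 genes tested, 14713 were called lower on that scale and 148 higher, so these calls are not particular to the 10. On the supporting cell markers 2468 of all genes were called lower and 7648 higher.

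Across a list of 50 Notch pathway genes, which holds 7 of the 10, 25 were called lower at P22, 7 higher and 18 in neither direction, with a median log2 fold change of -0.64 against -0.05 for all genes. Of the 43 that are not among the 10, 19 were lower and 7 higher (median -0.44). The split turned on the scaling, with 14 higher and 13 lower on the supporting cell markers and 0 and 48 on the neuron markers. Of all 16314 genes tested, 7648 were higher and 2468 lower on the first of these scales, and 148 and 14713 on the second. On the TMM scale, paralogs went in opposite directions in several roles. Of the receptors, *Notch3* fell with *Notch1* (-1.67 on the log2 scale), *Notch4* rose (0.81) and *Notch2* was at -0.35 without a call. Of the ligands, *Jag2* rose (0.74) while *Jag1* and *Dll1* fell, *Dll4* was at -0.36 without a call, and *Dll3* was at -2.89 with an SE of 0.595, above the limit. Of the fringe genes, *Mfng* fell (-1.16) with *Lfng* and *Rfng* rose (0.75).

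Further along the pathway, 4 of the 5 genes of the nuclear complex fell, among them *Rbpj* (-0.84) and *Maml3* (-1.33), which encode the DNA-binding factor and a Mastermind coactivator. Of the 7 genes of HES and HEY repressors 4 fell, namely *Hes1*, *Hes5*, *Hey1* (-1.05) and *Heyl* (-0.96), while *Hes6* (-0.42) and *Hes7* (-0.44, below 1 CPM) were not called. Of the 9 genes of receptor cleavage 3 fell, including *Adam17* (-1.27), and 2 rose, *Psenen* (0.83) and *Psen2* (0.69), both of gamma-secretase. Among 9 inhibitor genes 4 fell, including *Nrarp* (-1.38), itself a known Notch target, and *Fbxw7*, whose product marks the intracellular domain for degradation, rose 3.53-fold (1.81). Of the 4 ubiquitin ligase genes of ligand endocytosis 3 fell, *Neurl1b* (-2.05), *Neurl1a* (-1.64) and *Mib1* (-0.67), and *Mib2* (0.86) rose.

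**Figure D3:**
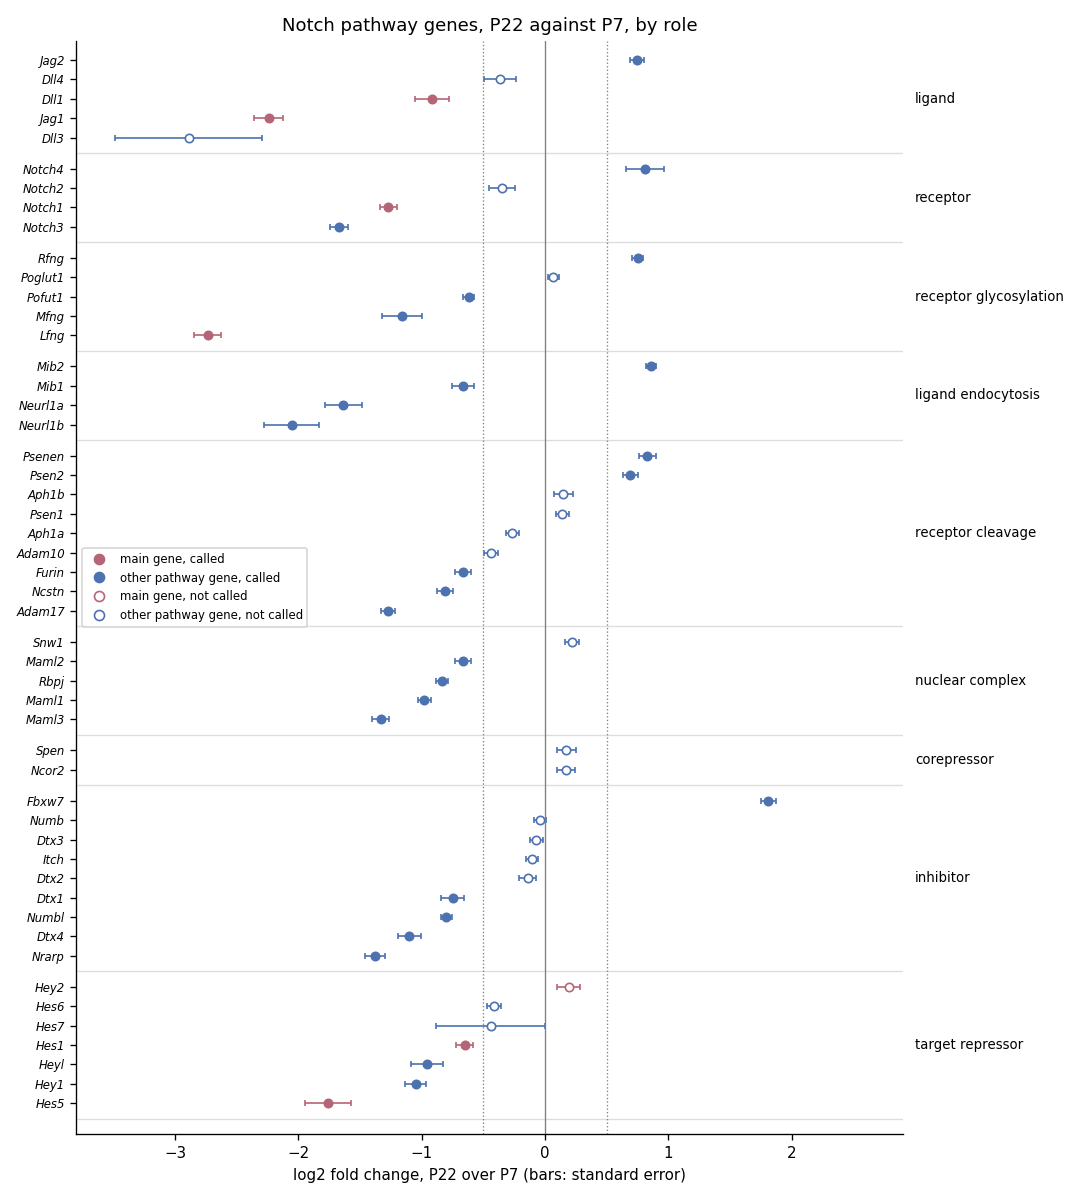
Log2 fold change of P22 over P7 on the TMM scale (horizontal axis, bars for the SE) of each of the 50 Notch pathway genes, grouped by role, with filled points for called genes and the 7 main genes in another colour. Points lie left of 0 for 36 genes and right of 0 for 14, *Fbxw7* farthest to the right, and dotted lines mark the limit of 0.5.

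Supporting cell genes outside the pathway were mixed too on the TMM scale. Of 15 markers 8 fell, among them *Fabp7* (-2.92), *Ednrb* (-2.36), *Fgfr3* (-1.76) and *Gata3* (-1.60), and 4 rose, *S100a1* (1.63), the connexin gene *Gjb6* (1.20), *Cdkn1b* (0.79) and *Hopx* (0.66). Of 11 genes that regulate prosensory and hair cell fate 6 fell and none rose, with *Pou4f3* (-1.84), *Bmp4* (-1.84) and *Id2* (-1.61) among them. With libraries scaled to the supporting cell markers, 4 of the 15 markers were called higher and 4 lower, and 1 and 3 of the 11 regulators, and with libraries scaled to the neuron markers 15 and 9 were called lower and none higher. The first scale centres the 15 markers by construction, so the balance of their calls there is not a result about them. Of all 16314 genes tested, 7648 were called higher and 2468 lower on the first scale, and 148 and 14713 on the second. The list of 5 genes of the greater epithelial ridge and the tectorial matrix summed to 5628 to 11011 CPM at P7 and 533 to 859 CPM at P22, and 4 of the 5 fell.

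The comparison of genotypes asked which genes change when the long form of BAI1 is lost. At P22, *Sall1* and *Lfng* were called higher in Bai1tm2b/tm2b pools and *Prox1* lower, and *Notch1* itself differed by less than the spread between pools. Calls were made for 1.74% (higher) and 1.41% (lower) of the 15443 genes tested. The genotypes did not overlap for 5 of the 10 genes (*Lfng*, *Hes1*, *Sox2* and *Sall1* higher, *Prox1* lower), as for 33.7% of all genes tested. The median log2 fold change was 0.28 for the 10 genes and 0.01 for all genes.

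*Sall1* (chr8:89027235-89044162, minus strand) had 24.0, 24.4 and 25.6 CPM in the 3 Bai1tm2b/+ pools and 34.0, 47.5 and 40.5 CPM in the 3 Bai1tm2b/tm2b pools. Every Bai1tm2b/tm2b pool was above every Bai1tm2b/+ pool, and the Bai1tm2b/+ pools lay close together. The log2 fold change was 0.73 (SE 0.109, adjusted p = 0.00394, edgeR), 1.65-fold higher by mean CPM, and it was between 0.61 and 0.85 with each library left out. *Sox2* (chr3:34650405-34652461, plus strand) followed the same order with 37.6, 36.6 and 40.7 CPM in Bai1tm2b/+ and 43.5, 49.9 and 52.5 CPM in Bai1tm2b/tm2b. Its log2 fold change of 0.35 (SE 0.0837, adjusted p = 0.0231, edgeR) passed the limit on p but not that on size, so it was not called. *Prox1* (chr1:190118035-190170714, minus strand) went the other way with 58.5, 54.8 and 68.6 CPM in Bai1tm2b/+ and 36.9, 45.6 and 37.4 CPM in Bai1tm2b/tm2b, a log2 fold change of -0.59 (SE 0.103, adjusted p = 0.00665, edgeR). Without Bai1tm2b/+ replicate 3, the highest pool, it was -0.50 and missed the limit on size.

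Among the genes of the pathway itself, *Lfng* had 15.7, 18.6 and 16.1 CPM in Bai1tm2b/+ pools and 22.5, 24.9 and 23.4 CPM in Bai1tm2b/tm2b pools. The groups did not overlap, and the log2 fold change of 0.50 (SE 0.0903, adjusted p = 0.00768, edgeR) lay on the limit of 0.5. It fell just under that limit with DESeq2 (0.497), with the size factors of DESeq2 and without the filter on low counts, and without Bai1tm2b/+ replicate 1 (0.45), Bai1tm2b/+ replicate 3 (0.47) or Bai1tm2b/tm2b replicate 2 (0.47), with an adjusted p of at most 0.0466 (edgeR) in these fits. The ligand gene *Jag1* had 38.5, 33.7 and 32.5 CPM in Bai1tm2b/+ and 38.0, 43.3 and 46.1 CPM in Bai1tm2b/tm2b, where 1 Bai1tm2b/tm2b pool lay within the control range, and its log2 fold change was 0.29 (SE 0.0925, adjusted p = 0.0656, edgeR). *Dll1* had 3.10, 2.77 and 2.43 CPM and 2.66, 1.70 and 1.59 CPM, from 57 to 101 counts a library, and its log2 fold change of -0.47 had an adjusted p of 0.239 (edgeR). *Notch1* had 78.1, 74.7 and 71.1 CPM in Bai1tm2b/+ and 63.7, 76.0 and 76.9 CPM in Bai1tm2b/tm2b, a log2 fold change of -0.04 (SE 0.0802, adjusted p = 0.787, edgeR).

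None of the 3 target genes was called at P22. *Hes1* had 10.03, 11.1 and 12.8 CPM in Bai1tm2b/+ and 14.5, 13.1 and 13.3 CPM in Bai1tm2b/tm2b. The groups were apart, but only by the gap between 12.8 and 13.1 CPM, and the log2 fold change was 0.28 (SE 0.115, adjusted p = 0.140, edgeR). *Hes5* had the largest fitted difference of the 3, 0.52 on the log2 scale, and the least precise (SE 0.309, adjusted p = 0.298, edgeR), at 0.817 to 1.47 CPM in Bai1tm2b/+ and 1.25 to 2.07 CPM in Bai1tm2b/tm2b. *Hey2* overlapped at 32.3 to 47.7 and 38.4 to 46.0 CPM (log2 fold change 0.15, adjusted p = 0.496, edgeR), with 1 Bai1tm2b/+ pool, replicate 3, above all others.

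In the list of 50 pathway genes, 48 were tested at P22 and *Lfng* was the 1 that was called, with a median log2 fold change of -0.02. The genotypes did not overlap for 13 of the 48, as for 33.7% of all genes. The other receptors were at 0.19 (*Notch2*), -0.14 (*Notch3*) and -0.07 (*Notch4*), and the other ligands at -0.03 (*Jag2*) and -0.10 (*Dll4*), while *Dll3* was too low to test. All 6 HES and HEY genes tested had a positive log2 fold change on the TMM scale (*Hes1*, *Hes6*, *Hey1* and *Hey2* turned negative on the supporting cell markers), from 0.08 for *Hey1* to 0.52 for *Hes5*, with *Hes6* at 0.28 (adjusted p = 0.0746, edgeR) and *Heyl* at 0.30, and *Hes7* was too low to test. Of the 15 supporting cell markers 3 were called higher, *Fgfr3* (0.69), *Fabp7* (0.74) and *Hopx* (0.66), and none lower (median 0.24). *Fgfr3* encodes a growth factor receptor of pillar and Deiters' cells, and the study also named it among the genes raised at P22. Of the 11 fate regulators, 9 were tested and 0 were called by edgeR or DESeq2, with 6 at an unadjusted p under 0.05 in edgeR, where 28.7% of all genes tested (4431) were.

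**Figure D4:**
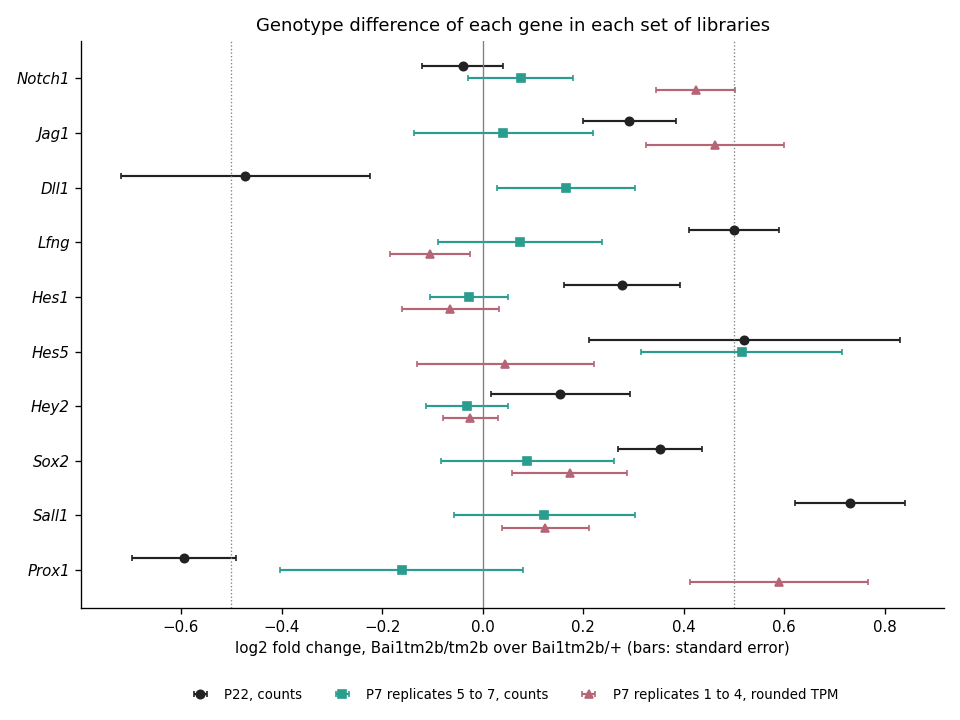
Log2 fold change of Bai1tm2b/tm2b over Bai1tm2b/+ (horizontal axis, bars for the SE) of each of the 10 genes at P22 and in both sets of P7 libraries, with dotted lines at the limit of 0.5. *Sall1* and *Prox1* lie past the limit in opposite directions at P22, and *Prox1* lies on the other side of 0 in the P7 libraries in rounded TPM, where *Dll1* was not tested.

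Markers of several cell types moved with genotype at P22. The 15 supporting cell markers summed to 2589.6 to 2975 CPM in Bai1tm2b/+ and 3151 to 3406 CPM in Bai1tm2b/tm2b pools, and the 11 hair cell markers to 313 to 339 and 416 to 509.8 CPM, with *Otof* and *Ocm* called higher. The 9 neuron markers summed to 14643 to 16654 CPM in Bai1tm2b/+ and 10746 to 12270 CPM in Bai1tm2b/tm2b, each with a negative log2 fold change and *Nefh* called lower. Markers of central glia summed to 367 to 398 and 462 to 804 CPM, with 4 of 5 called higher, and none of these was at 0. In the P7 libraries in counts, the central glia marker *Olig1* (62.8 to 164 CPM) ordered the pools as *Fabp7* (175 to 389 CPM) did. At P22 the order was not the same. Which cells gave the P22 call of *Fabp7*, listed as a supporting cell marker, was not tested. The 5 genes of the epithelial ridge and tectorial matrix summed to 533 to 619 and 699.7 to 859 CPM, with *Epyc* and *Tectb* called higher. Schwann cell markers summed to 16491 to 18087 and 17095 to 18977 CPM, with *Mbp* called higher, and endothelial markers to 217 to 261 and 209 to 233 CPM. *Prox1* had the negative sign of all 9 neuron markers at P22, whereas 13 of the 15 supporting cell markers were positive. With age *Prox1* was called higher, as were all 9 neuron markers and 4 of the 15 supporting cell markers. The part of any of these marker lists in the differences of *Sall1*, *Lfng* and *Prox1* was not tested.

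What scaling to a cell type does to these values was measured. On the supporting cell markers, which moved the median of all genes at P22 to -0.29, *Sall1* was at 0.42 (adjusted p = 0.00248, edgeR), *Lfng* at 0.20, *Sox2* at 0.05 and *Prox1* at -0.90 on the log2 scale. There *Sall1* and *Lfng* lost their calls, *Prox1* kept its call, *Dll1* was called lower (-0.76, adjusted p = 0.0162, edgeR), and the signs of *Jag1*, *Hes1* and *Hey2* turned. On the neuron markers, which moved the median to 0.33, *Sall1* was at 1.06, *Lfng* at 0.81, *Sox2* at 0.68, *Jag1* at 0.61 and *Hes1* at 0.59, all called higher, and *Prox1* at -0.26 (adjusted p = 0.113, edgeR) lost its call. Bai1tm2b/+ replicate 2 stood apart by its stria vascularis markers, which summed to 371 CPM against at most 8.13 CPM in the other 5 pools. Without it *Sall1*, *Lfng* and *Prox1* were still called, at 0.72, 0.58 and -0.66. Calls were then made for 3 of the pathway list and 5 of the supporting cell markers in place of 1 and 3. Over all genes, calls without that pool were 305 higher and 283 lower, in place of 269 and 218. With libraries scaled to the supporting cell markers 0 of these 15 markers were called, and with libraries scaled to the neuron markers 9 were, all higher. These 15 markers set the first scale, which centres them by construction, so their count there is not a result about them. The neuron scale moves genes up by construction, since every neuron marker was lower in Bai1tm2b/tm2b. Of all 15443 genes tested, 2557 were called higher and 44 lower on that scale, and 85 and 2002 on the supporting cell markers.

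**Figure D5:**
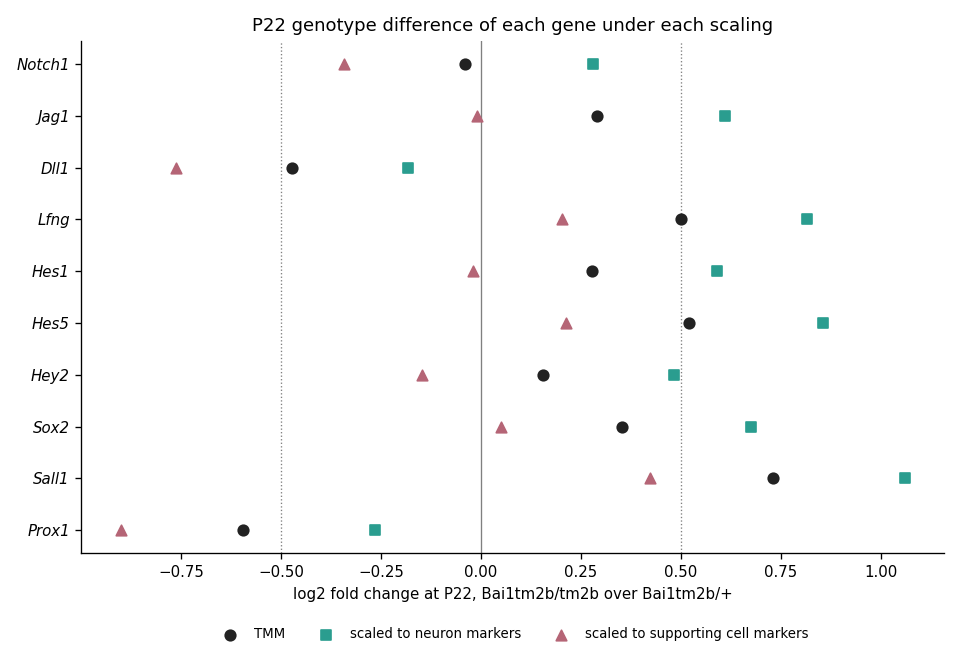
Log2 fold change of Bai1tm2b/tm2b over Bai1tm2b/+ at P22 (horizontal axis) of each of the 10 genes with TMM scaling and with libraries scaled to neuron or supporting cell markers. *Sall1* and *Lfng* are positive and *Prox1* and *Dll1* negative under all 3, whereas *Notch1*, *Jag1*, *Hes1* and *Hey2* change sign.

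At P7 no gene of the 10 was called in either set of libraries. In replicates 5 to 7, the libraries in counts, edgeR called 0 of the 10 and 0% of 16026 genes, with 1 of the 10 (*Hes5*) and 763 of all genes at an unadjusted p under 0.05. DESeq2 called 0 of the 10 as well, and 44 of all genes higher and 4 lower. *Hes5* had 4.63, 3.27 and 4.05 CPM in Bai1tm2b/+ and 4.37, 6.06 and 6.37 CPM in Bai1tm2b/tm2b pools, which overlapped (log2 fold change 0.52, SE 0.1996, adjusted p = 0.894, edgeR). *Dll1* was the 1 gene of the 10 whose groups did not overlap, as for 10.7% of all genes, with 4.36, 4.47 and 3.81 CPM and 4.59, 4.63 and 4.73 CPM (log2 fold change 0.17, adjusted p = 0.894, edgeR). The genes called at P22 were at 0.12 (*Sall1*, SE 0.180), 0.07 (*Lfng*, SE 0.164) and -0.16 (*Prox1*, SE 0.242), each within its standard error of 0. The other 5 were between -0.03 (*Hey2*) and 0.09 (*Sox2*). The pools of one genotype spread widely for some genes, as *Jag1* ranged from 141 to 227 CPM in Bai1tm2b/tm2b. The 9 neuron markers, all negative, summed to 1134 to 2574 CPM in Bai1tm2b/+ and 964 to 1494 CPM in Bai1tm2b/tm2b. Central glia markers, 4 of 5 positive and 3 at an unadjusted p under 0.05 (edgeR), summed to 312 to 383 and 364 to 527 CPM. Of the 15 supporting cell markers 8 were positive and 7 negative. None of these was called, and their part in the difference of *Hes5* was not tested. Of the 50 pathway genes 0 were called by edgeR or DESeq2, with 2 at an unadjusted p under 0.05 in edgeR, where 4.76% of all genes were.

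In replicates 1 to 4, the libraries in rounded TPM, limma tested 9 of the 10 and called 0, with 3 (*Notch1*, *Jag1* and *Prox1*) at an unadjusted p under 0.05, as for 34.5% of all genes (4048), and of all 11740 genes 0.656% were called higher and 0.153% lower. *Notch1* had 22, 18, 17 and 18 TPM in Bai1tm2b/+ and 25, 31, 26 and 28 TPM in Bai1tm2b/tm2b pools, and *Jag1* had 33, 32, 19 and 27 TPM and 45, 39, 36 and 44 TPM. For both the genotypes did not overlap, as for 14.8% of all genes tested. The log2 fold changes, on the scale of log2(TPM + 1), were 0.42 for *Notch1* (SE 0.0790, adjusted p = 0.0436, limma) and 0.46 for *Jag1* (SE 0.137, adjusted p = 0.0578, limma). *Prox1* had 8, 9, 6 and 6 TPM and 8, 16, 14 and 12 TPM in which 1 Bai1tm2b/tm2b pool, at 8 TPM, lay within the range of the controls (log2 fold change 0.59, SE 0.178, adjusted p = 0.0595, limma). *Notch2* (0.42, adjusted p = 0.0439, limma) and *Notch3* (0.32, adjusted p = 0.0499, limma) were also positive and under the limit on size, as was *Jag2* (0.29, adjusted p = 0.0616, limma). The other 6 of the 10 that were tested were between -0.10 (*Lfng*) and 0.17 (*Sox2*), and *Dll1*, at 1 or 2 TPM, was too low to test. With the TPM taken as deposited, without TMM scaling, which moved the median of all genes to 0.12, *Notch1* (0.53), *Jag1* (0.57) and *Prox1* (0.69) were called. Over all 11740 genes, calls without that scaling were 283 higher and 9 lower, against 77 and 18 with it. Of the pathway list 43 genes were tested and limma called 0, with 17 at an unadjusted p under 0.05 (34.5% of all genes were) and 31 with a positive log2 fold change (median 0.13, against 0.01 for all genes).

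In this set longer transcripts had higher log2 fold changes, as a description across genes, which are not independent replicates (Spearman's rho 0.567, against 0.0699 in the P7 libraries in counts and -0.213 at P22). *Notch1*, *Prox1* and *Jag1* have the longest transcripts of the 10 at 9488, 7913 and 5612 nt, where the median over the genes tested was 3432 nt. When each library was corrected for its trend on length and GC content (a correction chosen after seeing the data), *Notch1* was at 0.10 (adjusted p = 0.360, limma), *Jag1* at 0.32 (adjusted p = 0.224, limma) and *Prox1* at 0.43 (adjusted p = 0.1999, limma). The same correction left *Sall1* at 0.75 and *Prox1* at -0.54 at P22, both still called, while *Lfng* was at 0.44 and was not called. The neuron markers summed to 1226 to 2223 TPM in Bai1tm2b/+ and 1699 to 2547 TPM in Bai1tm2b/tm2b pools of this set. The supporting cell markers summed to 3883 to 4810.0 and 3988 to 4521 TPM. All 8 neuron markers tested had a positive log2 fold change (median 0.38), with 1 called higher, whereas 6 supporting cell markers were positive and 9 negative. *Prox1* had the sign of the neuron markers in this set too, and their part in its difference was not tested.

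Markers of other cell types also moved with genotype in this set. The 5 genes of the epithelial ridge and tectorial matrix summed to 2815 to 4178 TPM in Bai1tm2b/+ and 3733 to 4620.0 TPM in Bai1tm2b/tm2b pools, with *Tecta* called higher. Central glia markers summed to 199 to 315 and 171 to 225 TPM, with *Mobp* and *Mog* called lower, and red blood cell markers to 2928 to 3804 and 1576 to 3297 TPM, with *Hbb-bs* called lower. The hair cell gene *Otof* was called higher. The part of these in the differences of *Notch1*, *Jag1* and *Prox1* was not tested. Bai1tm2b/+ replicate 3, the pool with the lowest *Jag1*, stood apart by its stria vascularis markers, which summed to 266 TPM against 19.0 to 42.0 TPM in Bai1tm2b/tm2b pools. The other Bai1tm2b/+ pools spread too, from a sum of 7 TPM. Of these markers *Dct* was at 212 TPM in replicate 3, at 4, 12 and 59 TPM in replicates 1, 2 and 4, and at 13 to 29 TPM in Bai1tm2b/tm2b pools. Without Bai1tm2b/+ replicate 3 *Notch1* was at 0.39 (adjusted p = 0.123, limma), *Jag1* at 0.31 (adjusted p = 0.125, limma) and *Prox1* at 0.53 (adjusted p = 0.156, limma). Over all genes, 6 of the 8 fits without 1 pool gave 0 calls, as did a minimum mean of 1 TPM, so the shares of genes called given for this set depend on single pools and on the filter.

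Whether the genotype difference itself changed between P7 and P22 was tested by an interaction over the 12 libraries in counts, which shares its libraries with the comparisons above. None of the 10 was called by edgeR, nor by DESeq2. Over all genes, edgeR called 0.0306%, and DESeq2 called 31 higher and 88 lower of 19669 tested. The largest differences between the ages were those of *Dll1* (-0.62, SE 0.277, unadjusted p = 0.0438 and adjusted p = 0.476, edgeR) and *Sall1* (0.62, SE 0.232, unadjusted p = 0.01997 and adjusted p = 0.379, edgeR). *Hes1* was the third of the 10 with an unadjusted p under 0.05, where 10.2% of all genes were (0.32, unadjusted p = 0.0295 and adjusted p = 0.420, edgeR). For *Lfng* (0.44, adjusted p = 0.495, edgeR) and *Prox1* (-0.42, adjusted p = 0.655, edgeR), as for *Sall1*, this test did not show that the genotype difference at P22 differed from that at P7.

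The genes varied together to different degrees across the 12 libraries in counts once the mean of each age had been subtracted from the log2 CPM. These correlations are descriptions over 12 points whose values share a library, its depth and its mix of cells, and the P22 part of them holds the genotype differences given above. *Lfng* and *Sall1* were the closest pair (Pearson's r 0.904), followed by *Jag1* and *Sox2* (0.879). *Lfng* and *Sall1* had an r of 0.930 over the 6 P22 libraries and 0.880 over the 6 P7 libraries, and *Jag1* and *Lfng* had 0.730 and 0.941. *Notch1* had its highest r over the 12 libraries with *Jag1* (0.476), while *Notch1* and *Sall1* had an r of 0.892 over the 6 P7 libraries and 0.00708 over the 6 P22 libraries. *Prox1* had its highest r with *Dll1* (0.269) and its lowest with *Sall1* (-0.506).

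Of the 16313 genes compared, the one most like each of the 10 was *Spata13* for *Notch1* (0.910), *Rps6ka1* for *Jag1* (0.964), *Mcmbp* for *Dll1* (0.917), *Acsl3* for *Lfng* (0.978), *Rab9* for *Hes1* (0.945), *Tuft1* for *Hes5* (0.937), *Tdh* for *Hey2* (0.915), *Muc15* for *Sox2* (0.984), *Pkp4* for *Sall1* (0.962) and *Scrn1* for *Prox1* (0.936), by Pearson's r over the same 12 libraries. These names are the highest of many and none was tested. *Sox2* had the highest of these values and *Notch1* the lowest.

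The counts of some genes may include reads of another gene, since the sources do not say whether counting used strand. In the GENCODE M21 annotation, exons of the other strand cover 31.8% of the exon bases of *Hes5* and 20.5% of those of *Dll1*. They cover 9.76% of those of *Notch1* and 1.59% of those of *Prox1*. The values of these genes are uncertain for that reason, and the share of reads affected was not measured. The other 6 overlap no other gene's exons.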

How the data were processed

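RNA from pools of cochleae of 4 mice (3 to 4 in the supplementary legends) was sequenced as poly A libraries. The authors ran the nf-core RNA pipeline on the paired-end reads, with mm10 as the genome and Salmon for the gene values (STAR and DESeq2 are also listed in the submitters' processing notes). Versions, annotation release and strand setting are not given in the sources used here. The authors deposited estimated counts (expected counts) per gene for P22 and for P7 replicates 5 to 7. For P7 replicates 1 to 4 the deposited values were treated as a score, since they are whole numbers whose sums and sizes are those of rounded TPM.

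Estimated counts were rounded and filtered with filterByExpr, and genotypes were compared in R 4.3.3 with edgeR 4.0.16 (quasi-likelihood F test, TMM scaling). P22 against P7 and its interaction with genotype were fitted over the 12 libraries in counts. For rounded TPM, limma 3.58.1 with a mean-variance trend was used on log2 of TMM-scaled TPM after adding 1, where the mean of a gene reached 5 TPM. All adjusted p values are Benjamini-Hochberg values over all genes tested, and calls used the limits that the study states for P22, with the limit of 0.5 that it sets on a log2 standard deviation applied to the standard error. DESeq2 1.42.0, other filters and scalings, a replicate block and the removal of each library were alternatives. The fits were tested on simulated data.

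The genes and lists were chosen with earlier results of these data known. Named were the 10 genes, *Adgrb1*, ligand, receptor and HES or HEY genes, up to 12 called genes of the pathway, supporting cell and fate lists per comparison by size, and for each of the 10 the gene most like it. *Rbpj*, *Maml3*, *Adam17*, *Psenen*, *Psen2*, *Mib1*, *Mib2*, *Mfng*, *Rfng*, *Gjb6*, *Cdkn1b* and *Hopx* at P22 against P7 were named after their values were seen. Markers of mural cells, mesenchyme, bone, macrophages and red blood cells gave no call between genotypes at P22. Promoters came from RefSeq (GRCm38.p6) and exons from GENCODE M21.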

Additional observations from a re-analysis of the deposited data

Results flagged for a closer look

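In groups of 4 libraries, a value was marked when its gap to the nearest other, divided by the range of the group, exceeded Dixon's critical value for 4 values. This marked 3 of the 22 groups that had a spread. Chance marks about 1 in 20 groups of continuous values, but that rate does not apply to whole TPM. There 3 equal values give a ratio of 1 whatever the gap, and the groups also share their libraries. All 3 marked groups were in the Bai1tm2b/tm2b libraries in rounded TPM. *Dll1* had a ratio of 1, with replicate 3 at 1 TPM and the others at 2 TPM, and *Hey2* a ratio of 1, with replicate 1 at 25 TPM and the others at 27 TPM. *Hes1* had a ratio of 0.889, with replicate 3 at 27 TPM and the others at 35 to 36 TPM. The values are whole TPM, so for *Dll1* the gap is 1 step of the rounding.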

How the results depend on the processing

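With age, 9 of the 10 genes and 32 of the 50 pathway genes were called, and both counts stayed at these values under each of the 12 leave-outs, with DESeq2, without the filter and in each genotype alone. At P22, 3 of the 10 were called, against 5 (all higher) with neuron marker scaling, 2 (*Dll1* and *Prox1*, both lower) on supporting cell markers and 1 to 3 with 1 library left out, with *Sall1* alone without Bai1tm2b/+ replicate 3. The 1 call in the pathway list became 0 with the size factors of DESeq2, without the filter, with the Wald test of DESeq2 and with the trend on length and GC content removed, 7 (all higher) on neuron markers, 5 (all lower) on supporting cell markers and 3 with the adjusted p alone. With 1 library left out it ranged from 0 (without Bai1tm2b/+ replicate 1 or 3) to 3 (without Bai1tm2b/+ replicate 2). Over all genes at P22, 269 higher and 218 lower calls became 2557 and 44 on neuron markers and 85 and 2002 on supporting cell markers, and their sum ranged from 270 to 588 with 1 library left out. In rounded TPM, 0 of the 10 became 3 without TMM scaling and 1 (*Notch1*) with the adjusted p alone. Over all genes, 77 higher and 18 lower calls became 283 and 9, and 561 and 397, in these settings. With 1 library left out the count of the 10 ranged from 0 to 1. The 1 was *Jag1* without Bai1tm2b/+ replicate 1 (0.53) or *Prox1* without Bai1tm2b/tm2b replicate 1 (0.76). Over all genes 109 and 263 were called higher in those fits. Apart from the construction of each setting, the cause was not tested.

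Signs of some log2 fold changes turned. At P22 *Notch1* was at 0.28 on neuron markers, 0.036 with the trend removed and -0.091 to 0.047 with 1 library left out, and on supporting cell markers *Jag1* was at -0.010, *Hes1* at -0.019 and *Hey2* at -0.15. With age, *Hey2* was at -2.64 and *Prox1* at -1.41 on neuron markers. In the P7 libraries in counts, *Hes1* was at 0.30, *Hey2* at 0.29 and *Prox1* at 0.23 on neuron markers and *Jag1* at -0.030 on supporting cell markers. With 1 library left out there, the ranges were -0.017 to 0.17 for *Notch1*, -0.13 to 0.18 for *Jag1*, -0.050 to 0.21 for *Lfng*, -0.058 to 0.0054 for *Hes1*, -0.10 to 0.025 for *Hey2*, -0.059 to 0.27 for *Sox2*, -0.042 to 0.31 for *Sall1* and -0.35 to 0.011 for *Prox1*. In rounded TPM, *Lfng* was at 0.0055, *Hes1* at 0.044 and *Hey2* at 0.083 without TMM scaling, *Hes1* was at 0.095, *Hey2* at 0.074 and *Sall1* at -0.034 with the trend removed, and with 1 library left out *Hes5* ranged from -0.074 to 0.19 and *Hes1* from -0.10 to 0.022.

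Replicate numbers did not pair the libraries, as same-numbered libraries had correlations of -0.232 to 0.0668 in their deviations from the group means, and not every library correlated best with its own number. With the replicate block, 3 of the 10 were called at P22, 1 of the pathway list, and 0 of the 10 in either P7 set and in the interaction. Over all genes in rounded TPM, the 95 calls became 0 with the block (3218 genes at an unadjusted p under 0.05), with the trend removed (2358), with a minimum mean of 1 TPM (4348) and in 6 of the 8 fits with 1 library left out (2898 to 3774), and 332 without Bai1tm2b/tm2b replicate 1. Low counts limit *Dll1* and *Hes5*, and whole TPM limit *Dll1*, *Hes5* and *Prox1*.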
